A study of Rattus norvegicus with 12 samples.

Results

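The sodium-potassium ATPase was followed in rat left ventricle through 4 of its genes, the beta subunits Atp1b1, Atp1b2 and Atp1b3 and the regulatory protein Fxyd1. The genes were chosen by name, and every probe set whose annotation gave one of them as its single gene symbol was taken. Of the 4736 genes named by a single symbol, these 4 had 9 of the 8740 probe sets, 3 for Atp1b1, 3 for Atp1b2, 1 for Atp1b3 and 2 for Fxyd1, and all 9 were bright enough to be tested. The study measured total RNA of 12 left ventricle samples on 1 single-channel array each, 6 of them labelled as exercised, by 7 weeks of treadmill running (exercised 1, 4, 5, 7, 8 and 9) and 6 as sedentary (sedentary 13, 16, 17, 21, 23 and 24). No genetic change or drug is named for either group, and the labels do not name strain, sex, age or running schedule. Nor do they say whether each number stands for its own animal. If not, the p-values cover a spread that is in part technical.

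The pump moves sodium out of the cell and potassium in, against both gradients, at the cost of ATP. Its alpha subunit binds the ions and splits ATP, and its beta subunit is a glycoprotein that carries alpha to the cell surface and shapes its affinity for potassium. Small membrane proteins of the FXYD family attach to the pair and tune it. In heart muscle the pump restores the resting gradients after each beat, and the sodium gradient it sets drives calcium out through the sodium-calcium exchanger.

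The 12 arrays were on a common scale, with median intensities between 840 and 875. Sedentary 17 stood apart from the rest. Its mean correlation with the other arrays over all probe sets was 0.972, where the other 11 arrays had 0.989 to 0.992. Several results that rest on it are given with and without it. All 8 measured cardiomyocyte markers lay near the top of the intensity range, at percentiles from 98.6 for the calcium pump inhibitor Pln to 99.97 for cardiac actin Actc1, so the tissue carried the markers of its label. Differences are exercised minus sedentary on the scale log2(intensity + 363), which understates changes of dim probe sets, and intensities are given as mean ± SD with n = 6 per group. In tissue RNA, fewer cells of a type and less RNA per cell cannot be told apart.

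Atp1b1, the main beta subunit of heart muscle, had exercised over sedentary ratios of 1.19 on 2 of its 3 probe sets, and neither difference passed the test over all probe sets. None of the 9 reached an adjusted p of 0.05 (limma with Benjamini-Hochberg adjustment, two-sided), where 0.320% of the 6555 tested probe sets did. At an unadjusted p under 0.05 there were 2, both of them Atp1b1 and both higher, against a background of 16.2% of all tested probe sets in either direction, 9.26% higher and 6.91% lower. The exact permutation test also called none of the 9 after adjustment, but it called 0% of all 6555 (smallest adjusted p 0.104). At an unadjusted p under 0.05 it had 2 of the 9, beside 17.6% of all tested probe sets (1154). The groups overlapped on each of the 9 probe sets, and they did not overlap on 2.07% of all those tested. By sign 6 of the 9 were higher and 3 lower, and their median log2 difference was 0.0051 beside 0.0027 over all tested probe sets.

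**Figure D1:**
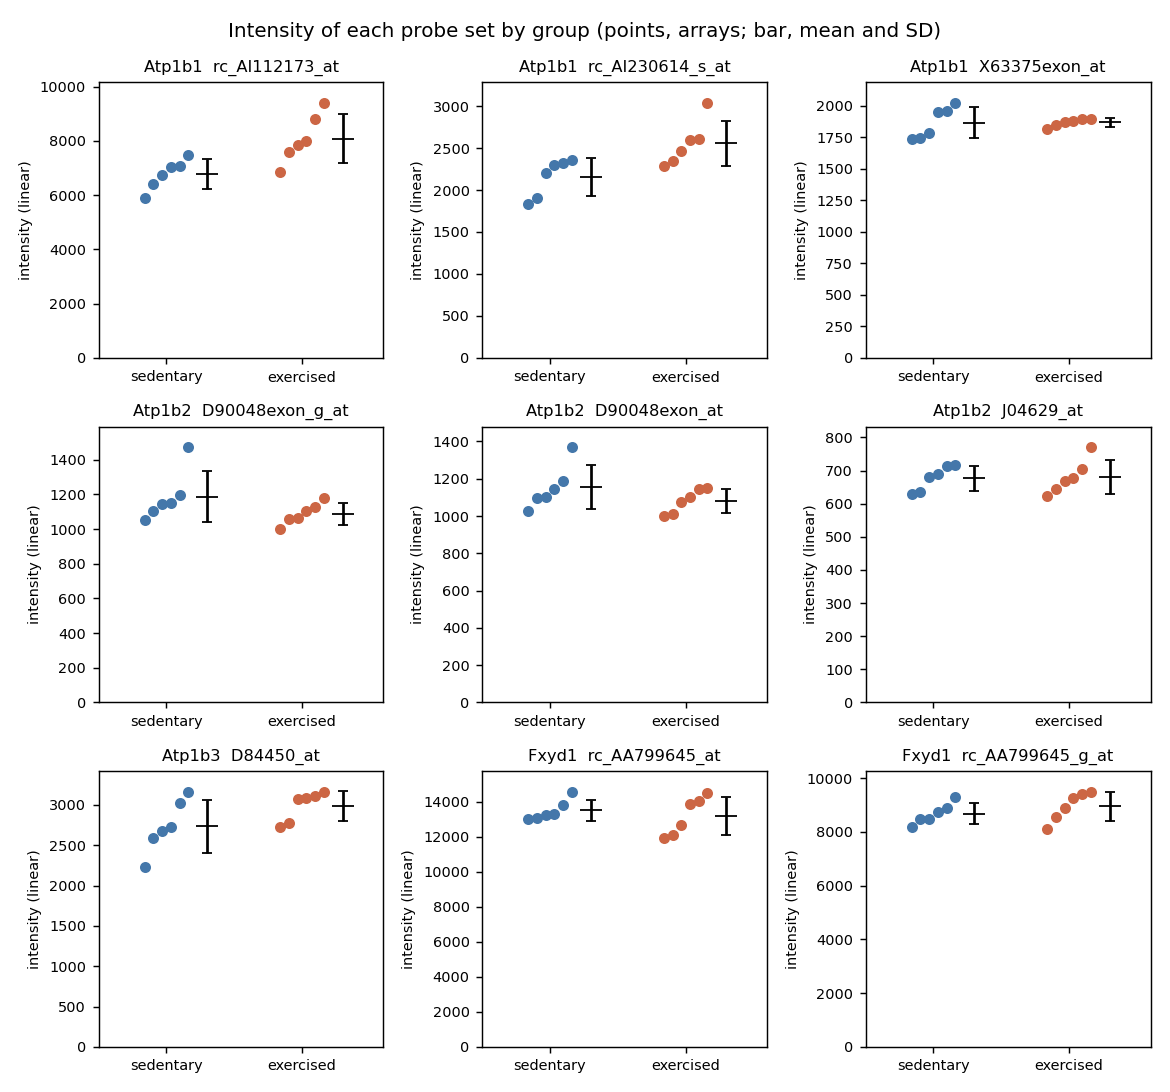
Intensity (linear scale, axis from 0) of the 9 probe sets of Atp1b1, Atp1b2, Atp1b3 and Fxyd1 in 6 sedentary and 6 exercised arrays; points are arrays, spread sideways in order of value, and the bar gives the mean and SD. On rc_AI112173_at of Atp1b1, 5 of 6 exercised arrays lie above the highest sedentary one, and on D90048exon_g_at of Atp1b2 sedentary 17 lies above all others at 1472.

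The brightest Atp1b1 probe set, rc_AI112173_at, had intensities from 5892 to 7474 in sedentary samples, with a median of 6897, and from 6849 to 9403 in exercised samples, with a median of 7931. Sedentary 23 was the lowest array and exercised 8 the highest. Of the 6 exercised arrays 5 lay above the highest sedentary one, all but exercised 4, and 6 of 6 lay above the sedentary mean, as they did for 14.5% of all tested probe sets. The mean went from 6768 ± 559 to 8080 ± 904 (n = 6 per group), a ratio of 1.19. The log2 difference was 0.24 ± 0.076 (SE), with a 95% confidence interval from 0.077 to 0.40 (limma unadjusted p = 0.00687, adjusted p = 0.150), and its rank by p was 299 of the 6555. An exact permutation test gave an unadjusted p of 0.0130 (two-sided). With 1 array left out the difference ran from 0.20 without exercised 8 to 0.28 without exercised 4, and the limma adjusted p from 0.0992 to 0.289.

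The second Atp1b1 probe set, rc_AI230614_s_at, comes from another sequence tag and gave nearly the same ratio. Its intensities ran from 1830 to 2362 in sedentary samples (median 2251) and from 2290 to 3040 in exercised samples (median 2531). Here 4 of 6 exercised arrays lay above the highest sedentary one and exercised 8 was again the highest. The mean went from 2155 ± 229 to 2559 ± 268 (n = 6 per group), a ratio of 1.19, with a log2 difference of 0.21 ± 0.073 (95% interval 0.059 to 0.37, limma adjusted p = 0.167). The letter s in its name marks probes that can match more than one transcript.

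The third Atp1b1 probe set, X63375exon_at, showed no such shift. It lay between 1733 and 2024 in sedentary samples (median 1869) and between 1813 and 1898 in exercised samples (median 1876), so the exercised values sat inside the sedentary range. Its log2 difference was 0.0025 ± 0.043 (95% interval -0.091 to 0.096, limma adjusted p = 0.983). Taken on the same arrays, rc_AI112173_at exceeded X63375exon_at by 0.24 ± 0.086 more in exercised than in sedentary samples (higher in 5 of 6 exercised arrays than in any sedentary one, exact permutation p = 0.0195), and rc_AI230614_s_at did so by 0.21 ± 0.086 (p = 0.0325). Neither passed when adjusted over the 7 pairs of probe sets of one gene (0.114 for both). This comparison was added after the values were seen. The disagreement of the probe sets is a measured limit on any statement about the Atp1b1 transcript, and its cause was not tested.

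Atp1b2, a beta subunit first described as an adhesion molecule on glia, was near the middle of the intensity range in the ventricle, at the 60th percentile on D90048exon_g_at and D90048exon_at. On D90048exon_g_at the sedentary arrays ran from 1053 to 1472 (median 1148) and the exercised ones from 999 to 1176 (median 1084). All 6 exercised arrays lay below the sedentary mean, which sedentary 17 raised, and the groups overlapped. Exercised 7, at 1176, lay above the sedentary median. The share of all tested probe sets with all exercised arrays below the sedentary mean was not computed. The mean went from 1187 ± 148 to 1088 ± 62.2, a log2 difference of -0.091 ± 0.057 (95% interval -0.21 to 0.031, limma adjusted p = 0.441), and without sedentary 17, whose value was 1472, the difference was -0.041. D90048exon_at, built on the same sequence and so no independent measure, gave -0.068 ± 0.052 (adjusted p = 0.523), and -0.029 without sedentary 17. J04629_at, from another sequence, was dimmer, with 629 to 718 in sedentary and 624 to 770 in exercised samples. It gave 0.0051 ± 0.039 (95% interval -0.079 to 0.089).

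Atp1b3, the third beta subunit, which is made in many tissues, had 1 probe set, D84450_at. Its sedentary values ran from 2231 to 3159 with a median of 2696, and its exercised values from 2731 to 3163 with a median of 3076. The groups overlapped almost fully at the top, where sedentary 16 reached 3159, while 4 of 6 sedentary arrays lay below the lowest exercised one. The mean went from 2733 ± 329 to 2988 ± 187 (n = 6 per group), a log2 difference of 0.12 ± 0.070 (95% interval -0.032 to 0.27, limma unadjusted p = 0.113, adjusted p = 0.413). The lowest value was that of sedentary 17, and without it the difference was 0.069, against 0.16 without sedentary 16. With array weights it was 0.046.

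Fxyd1, or phospholemman, restrains the pump in heart muscle until protein kinases phosphorylate it. Both probe sets were bright, at percentiles of 97.6 and 96.2. On rc_AA799645_at the values ran from 13014 to 14561 in sedentary samples (median 13250) and from 11909 to 14511 in exercised ones (median 13264), so the medians nearly coincided. Exercised 4, 1 and 5 lay below every sedentary array and exercised 7, 8 and 9 near the top. The log2 difference was -0.036 ± 0.058 (95% interval -0.16 to 0.087, limma adjusted p = 0.763). It was -0.11 under quantile normalization, -0.0086 without exercised 4 and 0.012 without exercised 4 and 5 together. The other probe set, rc_AA799645_g_at, had 8175 to 9295 in sedentary and 8119 to 9490 in exercised samples and gave 0.042 ± 0.052 (95% interval -0.069 to 0.15, adjusted p = 0.696), or -0.042 under quantile normalization. As ratios on this scale, the intervals ran from 0.895 to 1.06 on the first and from 0.954 to 1.11 on the second.

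**Figure D2:**
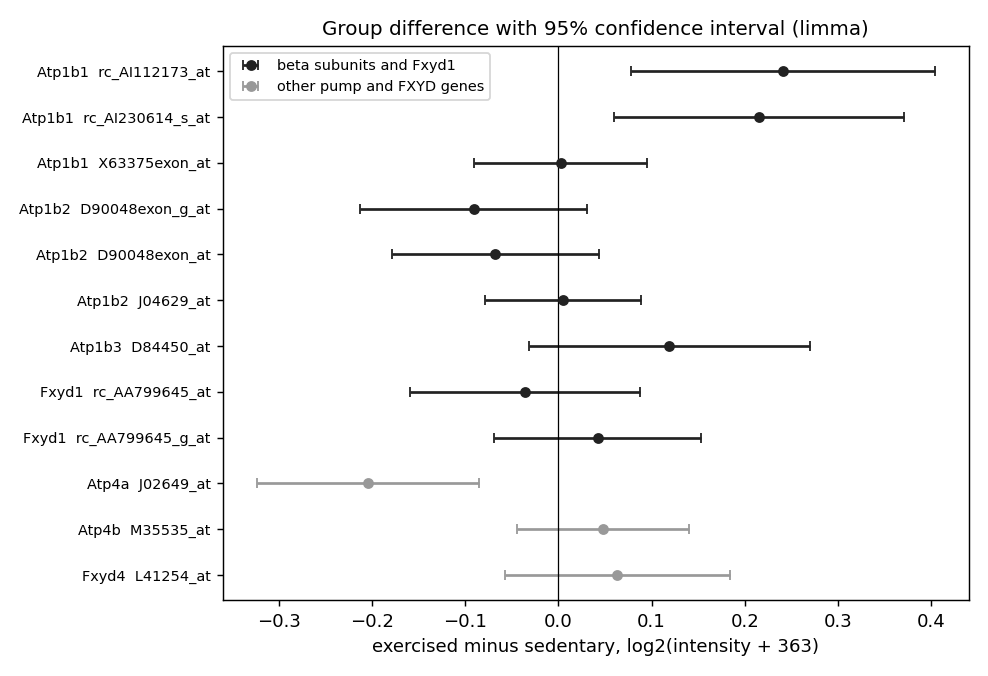
Exercised minus sedentary difference on the scale log2(intensity + 363) with its 95% confidence interval (limma, 6 arrays per group) for the 9 probe sets of the beta subunits and Fxyd1 (black) and 1 probe set each of 3 other pump and FXYD genes (grey). The intervals of rc_AI112173_at and rc_AI230614_s_at of Atp1b1 lie above 0 and that of Atp4a below, and none of these passed an adjusted p of 0.05.

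Whether the 4 genes differed from each other in their response was asked within arrays. For each array the log2 value of one gene was subtracted from that of another, on the brightest probe set of each, and the result was compared between groups by an exact two-sided permutation test, whose smallest possible p is 0.00216, with adjustment over the 6 pairs. Such a difference cancels the scaling of an array and shows unequal change, not which of the 2 genes changed.

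Atp1b1 gained on Atp1b2 and on Fxyd1 on the brightest probe sets. For this and the other pairs, the share of pairs of other genes passing the same test was not computed. Of all tested single probe sets, 17.6% had an exact permutation p under 0.05 unadjusted. The calls are therefore not shown to be particular to the pump genes. Atp1b1 minus Atp1b2 was higher in exercised samples by 0.33 ± 0.090 (SE, higher than the sedentary mean in 6 of 6 and than every sedentary array in 5 of 6, exact p = 0.00433, adjusted 0.0195). Atp1b1 minus Fxyd1 was higher by 0.28 ± 0.074 (6 of 6 above the sedentary mean and 4 of 6 above every sedentary array, exact p = 0.00649, adjusted 0.0195). With 1 array left out the first ran from 0.28 to 0.38 and the second from 0.24 to 0.31, and both kept an adjusted p under 0.05, at most 0.0390 and 0.0433. Both depended on the probe set. With X63375exon_at for Atp1b1 the differences were 0.093 (exact adjusted p = 0.290) and 0.039 (0.610). With rc_AI230614_s_at they were 0.31 and 0.25 (0.0303 for both). The first was 0.24 with J04629_at for Atp1b2 (0.0952) and the second 0.20 with rc_AA799645_g_at for Fxyd1 (0.0909). With the mean of all probe sets of each gene they were 0.20 and 0.15 (0.0736 for both), and without exercised 4 and 5 together the second was 0.25 (0.0714).

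Atp1b3 also gained on Fxyd1, by 0.16 ± 0.054 (6 of 6 exercised above the sedentary mean, exact p = 0.0152, adjusted 0.0303). This call was lost without exercised 1, 5 or 8, where the difference was 0.15, 0.14 and 0.16 (exact adjusted p = 0.0606, 0.0606 and 0.0563). It was also lost without exercised 4 and 5 together (0.13, adjusted p = 0.152), with rc_AA799645_g_at for Fxyd1 (0.077, adjusted p = 0.208) and with the mean of all probe sets (0.12, adjusted p = 0.0736). Atp1b1 minus Atp1b3 differed by 0.12 ± 0.093 (exact p = 0.219, adjusted 0.262), and by 0.20 without sedentary 17 (adjusted p = 0.0173). On sedentary 17 the Atp1b1 value was the highest of its group and the Atp1b3 value the lowest. Atp1b2 minus Atp1b3 differed by -0.21 ± 0.11 (exact p = 0.0455, adjusted 0.0682), and by -0.11 without sedentary 17. It passed without exercised 4 (-0.24, adjusted p = 0.0487) or sedentary 16 (-0.25, adjusted p = 0.0195). Atp1b2 minus Fxyd1 differed by -0.055 ± 0.075 (exact p = 0.550), and by 0.0051 without sedentary 17.

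**Figure D3:**
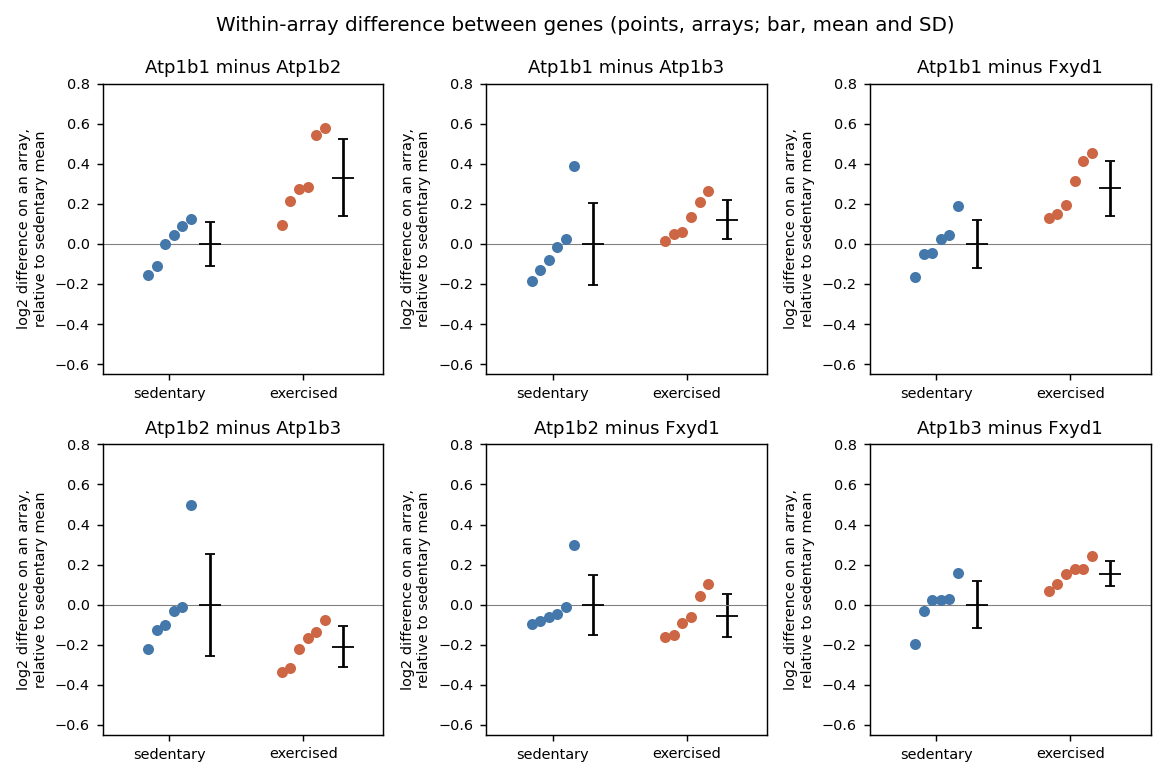
Difference in log2(intensity + 363) between the brightest probe sets of 2 genes on the same array, set relative to the sedentary mean, for the 6 pairs of genes; points are arrays, spread sideways in order of value, and the bar gives the mean and SD of 6 arrays. In the panel of Atp1b1 minus Atp1b2, 5 of 6 exercised arrays lie above every sedentary one, and in those of Atp1b1 minus Atp1b3, Atp1b1 minus Fxyd1, Atp1b2 minus Atp1b3 and Atp1b2 minus Fxyd1 the highest sedentary point is sedentary 17.

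Apart from the group difference, Atp1b3 and Fxyd1 varied together from array to array. With group means removed, their log2 values over the 12 arrays had a Pearson r of 0.669 and a Spearman rho of 0.783 (permutation within groups, p = 0.00212 and 0.00076, and 0.0138 for r after adjustment over 13 pairs). Without sedentary 16 and 17, the arrays farthest from the median of Atp1b3, r was 0.863. The points share array and scaling. Of all tested probe sets, 6.15% had a higher r with Fxyd1 than Atp1b3 had, and 7.84% a higher r with Atp1b3 than Fxyd1 had. For pairs of probe sets of one gene such a share was not computed. The 2 shifted probe sets of Atp1b1 went together with r = 0.749 and rho = 0.713 (permutation p = 0.00788 and 0.0107, and 0.0341 for r after adjustment), or r = 0.580 without exercised 4 and 8. X63375exon_at went with neither (r = -0.0058 and -0.092, permutation p = 0.986 and 0.716). The 2 overlapping probe sets of Atp1b2 had r = 0.932 and rho = 0.888 (permutation p = 0.00031 and 0.00033), and r = 0.795 without sedentary 17 and 21. J04629_at had r of 0.344 and 0.183 with them (permutation p = 0.268 and 0.572). The 2 probe sets of Fxyd1 had r = 0.738 and rho = 0.692 (permutation p = 0.0176 and 0.0280, adjusted 0.0571), and r = 0.880 without exercised 9 and sedentary 24. The other 5 pairs of genes had r from -0.457 to 0.420, with permutation p from 0.245 to 0.610. The r of -0.457, for Atp1b2 and Atp1b3, was 0.15 without sedentary 17 and exercised 7. That of 0.420, for Atp1b1 and Fxyd1, was 0.089 without exercised 4 and 8.

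**Figure D4:**
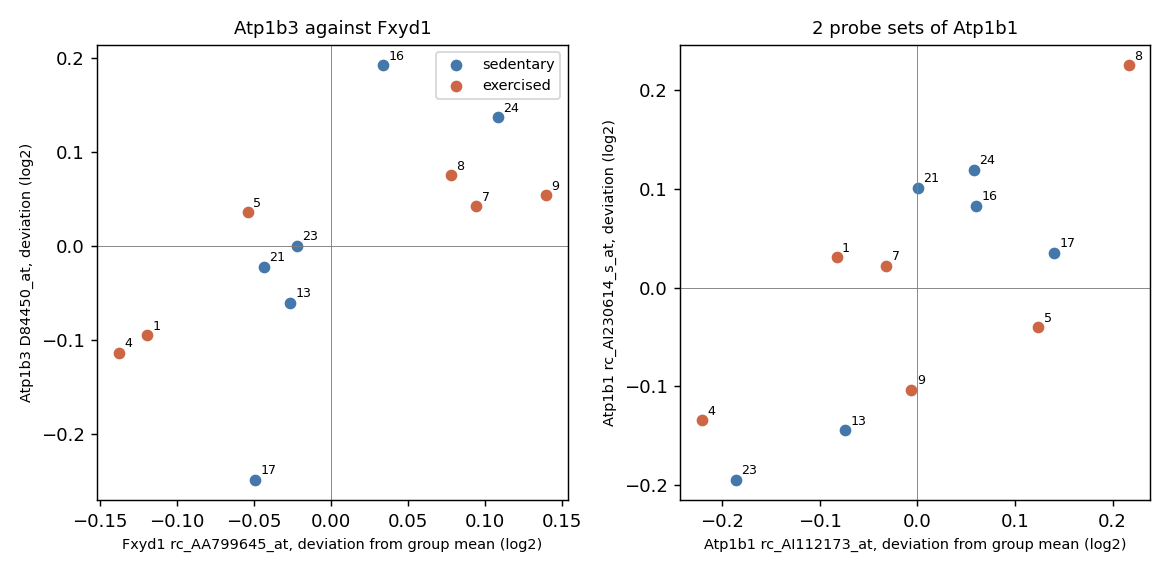
Deviation of each array from its group mean on the scale log2(intensity + 363), for Atp1b3 against Fxyd1 (left) and for 2 probe sets of Atp1b1 (right); points are the 12 arrays, coloured by group and numbered as in their labels. Pearson r is 0.669 on the left, where sedentary 17 lies lowest, and 0.749 on the right, where exercised 8 lies highest on both axes.

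The genes most like each member in this array-to-array variation were taken as the 3 with the highest Pearson r over the 12 arrays with group means removed, as a description. For Atp1b1 they were the hexokinase Hk1 (r = 0.910), the ribosomal protein gene Rpl36 (0.903) and the MHC class II chaperone Cd74 (0.897). For Atp1b2 they were the heme oxygenase Hmox2 (0.961), the sterol demethylase Cyp51 (0.957) and the ubiquitin ligase Huwe1 (0.957). For Atp1b3 they were Isoc2b (0.929), the NADPH oxidase subunit Cyba (0.923) and Grina (0.920). Sedentary 17 had the largest deviation from its group mean for both Atp1b2 (0.249) and Atp1b3 (-0.248). These r were not computed without that array and may rest on it. For Fxyd1 they were the complex I subunit Ndufs7 (0.942), the proteasome subunit Psmb2 (0.941) and the epoxide hydrolase Ephx1 (0.930). None of these 12 genes passed an adjusted p of 0.05 between the groups in limma.

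Other subunits of ion pumps of this family and other FXYD genes formed a list of 14. Of these, 6 were on the array with a single symbol and 4 passed the intensity minimum. One of the 4, Fxyd2, the gamma subunit known from the kidney, passed the intensity minimum of 434 only through its exercised values, with a mean of 656 ± 150 there and 410 ± 67.2 in sedentary samples, so its values are a description and no test of it is given. Its intensities ran from 330 to 489 in sedentary samples (median 408) and from 458 to 835 in exercised samples (median 656), so it was dim, and exercised 9 at 458 and sedentary 13 at 489 made the groups overlap. Of the other 3, none passed an adjusted p of 0.05 in limma. At an unadjusted p under 0.05, 1 of them was lower and none higher. Of the 3876 tested genes, with 1 probe set each, 9.21% were higher (357) and 6.91% lower (268) at that p.

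Atp4a and Atp4b are the subunits of the proton-potassium pump of the stomach. Atp4a went from 1004 ± 114 to 822 ± 64.8 on J02649_at, a log2 difference of -0.20 ± 0.055 (limma adjusted p = 0.101, and 0.0472 with array weights). Its highest value was on sedentary 17, and without that array the difference was -0.17. Its other probe sets were below the intensity needed for testing. Atp4b gave 0.048 ± 0.043 and, on its dimmer probe set, -0.040 ± 0.032 (adjusted p = 0.588 and 0.547). Fxyd4, an FXYD protein known from kidney and colon, gave 0.063 ± 0.056 (0.587). Atp1a4, the alpha subunit known from sperm, was below that intensity, with 241 to 264 in exercised samples and 255 to 549 in sedentary ones, where sedentary 17 had the 549 and the next highest array 275. The proton-potassium pump gene Atp12a lay between 134 and 157 on all arrays. No detection calls were used here, so whether these dim probe sets measured the named gene was not tested.

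A list of 38 held carriers and channels that move sodium and potassium across the muscle membrane. It also held the anion exchangers Slc4a2 and Slc4a3 and the channel regulators Abcc8 and Abcc9. Of the 38 genes, 25 were tested. None passed an adjusted p of 0.05 in limma, 1 was higher and 2 lower at an unadjusted p under 0.05 (357 and 268 of all 3876 genes), and the median was -0.0089, beside 0.0029 over all 3876. Among the brightest probe sets of each gene, the smallest p belonged to the sodium-bicarbonate cotransporter Slc4a4 (log2 difference 0.12 ± 0.045, limma adjusted p = 0.215), the potassium channel Kcna5 (-0.23 ± 0.093, 0.234), the channel subunit Kcnj11 of the ATP-sensitive potassium current (-0.29 ± 0.13, 0.291, with -0.040 on its dimmer probe set) and the sodium-potassium-chloride cotransporter Slc12a2 (0.098 ± 0.049, 0.342, with -0.085 on another probe set). Kcna5 had 1119 on sedentary 17 and 651 to 758 on the remaining sedentary arrays, and its difference was -0.16 once that array was left out. Without the same array the difference of Kcnj11 was also -0.16, and that of Slc4a4 was 0.088. The sodium-calcium exchanger Slc8a1, which runs on the gradient set by the pump, gave -0.0089 ± 0.065 on its brightest probe set. It was named for its role, outside the rule.

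Regulators and scaffolds of the pump formed another list of 38, of which 30 were tested. None passed an adjusted p of 0.05 in limma, 2 were higher and 4 lower at an unadjusted p under 0.05 (again beside 357 and 268 of 3876), and the median was 0.0012. Among the brightest probe sets of each gene, the smallest p belonged to the thyroid hormone receptor Thra (-0.21 ± 0.065, limma adjusted p = 0.151, with 0.10 and -0.0072 on its other probe sets), protein kinase C alpha, Prkca, one of the kinases that act on Fxyd1 (-0.11 ± 0.036, 0.171), the endoplasmic reticulum chaperone Hspa5 (-0.27 ± 0.11, 0.245, with -0.048 on a dimmer probe set) and the spectrin chain Sptan1 of the membrane skeleton (0.097 ± 0.041, 0.254). Sptan1 was lowest on sedentary 17, and its difference was 0.076 without that array.

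Markers of other cells were summed per array beside these values. None of the 10 marker lists differed between the groups at an adjusted p of 0.05 (exact permutation over samples, adjusted over the 10 lists), and 3 had an unadjusted p under 0.05. The cardiomyocyte sum, over 8 of 8 markers, lay between 333237 and 364835 in sedentary and between 340872 and 365701 in exercised samples (log2 difference 0.017, exact p = 0.459). The macrophage and leukocyte sum, over 6 of 7 markers, lay between 16180 and 18235 in sedentary and 17572 and 23654 in exercised samples (0.22, exact p = 0.0152, adjusted 0.0758). The erythroid sum, over 3 of 6 markers, lay between 37211 and 42376 in sedentary and 13476 and 38361 in exercised samples (-0.51, exact p = 0.00866, adjusted 0.0758), with exercised 5 lowest. The fibroblast sum, over 7 of 7 markers, lay between 25925 and 33631 in sedentary and 30331 and 50025 in exercised samples (0.24, exact p = 0.0931, adjusted 0.186). The smooth muscle sum, over 5 of 5, lay between 4944 and 6994 in sedentary and 5914 and 8179 in exercised samples (0.21, exact p = 0.0866, adjusted 0.186). The adipocyte sum, over 4 of 5 markers, gave 0.087 (exact p = 0.0498, adjusted 0.166). The Schwann cell and neuron sum, over 6 of 9 markers, lay between 6127 and 7172 in sedentary and 6727 and 7660 in exercised samples (0.063, exact p = 0.201). No measured marker was at 0 on any array. The part of these cells in the values of Atp1b1, Atp1b2, Atp1b3 and Fxyd1 was not tested.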

How the data were processed

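Left ventricular RNA in 6 exercised and 6 sedentary samples was measured on single-channel arrays. The authors deposited 1 intensity per probe set and array, on a linear scale. How it was made (software, background correction, scaling, detection calls) is not given in the sources used here. The arrays' number limits the precision. Groups came from the sample titles, whose numbers are not shared between groups, and no batch is given. No coordinates are printed, since no genome build is named.

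Values were taken as log2(intensity + 363), the pseudocount being the 20th percentile of all values, and 6555 of 8740 probe sets with a mean above the 25th percentile (434) were fitted with limma 3.58.1 (lmFit, eBayes with trend) in R 4.3.3 and adjusted by Benjamini-Hochberg at 0.05. The platform annotation named 1 gene for 7006 probe sets, several for 308, and 1426 are unnamed here. Entrez IDs of all 9 probe sets of the 4 genes were found in a RefSeq gene table, with the same symbols. The brightest probe set stood for a gene. Named genes were the 4 chosen ones, all other pump and FXYD genes measured, the 4 of smallest p in each of 2 further lists, and the 3 most correlated with each chosen gene. Correlations used 100000 permutations within groups. The members, lists and 2 of the array pairs left out were chosen with earlier results of these data known, and the exchange of probe sets in the gene pairs was added after seeing the data. Alternatives were other pseudocounts, a floor, filters, scalings, variance models, array weights, an exact test and arrays left out. Only the limma fit was tested on simulated data, with noise drawn independently for each probe set. The permutation, pair, correlation and marker code was not part of that test.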

Additional observations from a re-analysis of the deposited data

Results flagged for a closer look

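Of the 18 groups of 6 values given by the 9 probe sets of Atp1b1, Atp1b2, Atp1b3 and Fxyd1, 1 held a sample far from the others, where chance gives about 1 in 20. Atp1b2 on D90048exon_g_at had an intensity of 1472 on sedentary 17, with 1053 to 1195 on the remaining sedentary arrays. Its gap to the nearest of them was 0.632 of the range on the log2 scale.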

How the results depend on the processing

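None of the 9 probe sets of the pump genes passed an adjusted p of 0.05 under any of the 25 alternatives run, and Atp1b1 kept its direction on rc_AI112173_at (0.20 to 0.29) and rc_AI230614_s_at (0.17 to 0.26). Small differences changed sign. X63375exon_at of Atp1b1 gave -0.0042 with quantile normalization, -0.0043 without exercised 4 and 5 together and -0.015 to 0.023 with 1 array left out. J04629_at of Atp1b2 gave -0.033 without exercised 4 and 5 and -0.019 to 0.021 with 1 array left out, and the 50th percentile filter removed it. Fxyd1 gave 0.012 on rc_AA799645_at without exercised 4 and 5 and -0.042 on rc_AA799645_g_at with quantile normalization. No paired analysis was possible because the groups share no replicate numbers.

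Among the pairs of genes, Atp1b1 minus Atp1b2 fell to 0.093 with X63375exon_at, 0.24 with J04629_at and 0.20 with the mean of all probe sets. Atp1b1 minus Fxyd1 fell to 0.039 with X63375exon_at, 0.20 with rc_AA799645_g_at, 0.15 with the mean and 0.25 without exercised 4 and 5. Atp1b3 minus Fxyd1 was 0.077 with rc_AA799645_g_at, 0.12 with the mean, 0.13 without exercised 4 and 5 and 0.12 to 0.19 with 1 array left out. These alternatives ended the call of their pair, for Atp1b3 minus Fxyd1 with 3 of the 12 single arrays left out. Atp1b1 minus Atp1b3 was -0.12 with X63375exon_at, 0.19 and called without sedentary 16 and 17, and 0.084 to 0.20 with 1 array left out. Atp1b2 minus Atp1b3 was -0.21 and called with quantile normalization, and -0.25 to -0.11 with 1 array left out. Atp1b2 minus Fxyd1 was 0.041 with J04629_at, 0.017 with quantile normalization, 0.0040 without sedentary 16 and 17, and -0.086 to 0.0051 with 1 array left out. The cause was not tested.

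The number of probe sets called over the table, 21, was 160 with array weights, 50 with the 50th percentile filter, 42 without trend, 32 without a filter, 5 without sedentary 16 and 17, 4 without exercised 4 and 5, 3 to 37 with 1 array left out (over 1.5 times fewer without exercised 5, 7 or 9 or sedentary 16, 21, 23 or 24, and more without exercised 1 or sedentary 13), and 0 by the exact test, where 1154 had an unadjusted p under 0.05. Of the other pump and FXYD genes, the count past an adjusted p of 0.05 was 2 with array weights, Atp4a and Fxyd2. This count was 0 to 1 with 1 array left out, the 1 being Fxyd2 without exercised 9. Fxyd2 passed the intensity minimum only through its exercised values, so its part in these counts is no valid test of it. No conclusion about Fxyd2 is drawn from them, and only Atp4a is read as a call. Marker sums became called for erythroid cells with median scaling (-0.50) and quantile normalization (-0.52), for macrophages with median scaling (0.22) and for smooth muscle without sedentary 16 and 17 (0.34). With 1 array left out they ran from -0.60 to -0.30 for erythroid cells, 0.17 to 0.25 for macrophages, 0.060 to 0.11 for adipocytes and -0.012 to 0.48 for atrial markers. Under the other alternatives the smallest erythroid difference was -0.13. Erythroid and macrophage sums were called without exercised 1 or 8 and the adipocyte sum without exercised 8. The atrial sum was -0.012 without exercised 4, and -0.099 without exercised 4 and 5.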

Other observations

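Caveolin 3 (Cav3), a coat protein of the muscle membrane folds, was on the list of scaffolds and was chosen here after its values were seen. On rc_AI043968_at it lay between 1965 and 2132 in sedentary samples and between 1973 and 3017 in exercised samples, with a log2 difference of 0.24 ± 0.078 (limma adjusted p = 0.151). A probe set on the same sequence, rc_AI043968_g_at, gave 0.25 ± 0.087 (0.179), and the brightest one, rc_AI104707_at, gave 0.00078 ± 0.069 (0.996). The difference between these probe sets was not tested.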
